A study of Mus musculus with 24 samples.

Results

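Described here are 10 nuclear receptors that set hepatocyte identity or handle lipids, bile acids and steroid hormones in the liver: Hnf4a, Nr1h3, Nr1h4, Rxra, Rxrb, Nr5a2, Ppard, Pparg, Esr1 and Nr3c1. They were chosen by name and are 10 of the 54532 genes in the count table. All 10 were among the 15090 genes that passed the filter on low counts. RNA sequencing of mouse liver covered wild-type mice (Hlf+/+/Dbp+/+/Tef+/+) and triple knockout mice (Hlf-/-/Dbp-/-/Tef-/-), which lack the 3 PAR bZip factors. All mice were 12 to 16 weeks old and fed ad libitum. Livers were taken every 4 h from ZT04 to ZT24 (zeitgeber time, hours after lights on), with 2 libraries per genotype and time, 12 groups and 24 libraries in all. Replicate 1 of each group carries the letter I and replicate 2 the letter P, called set I and set P here, and what the letters mean is not given in the labels. The labels do not tie the libraries of a group to different mice. A p-value here therefore reflects the scatter of these libraries alone, which may be technical.

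Nuclear receptors are transcription factors that bind DNA and, in most cases, a small fat-soluble ligand. Receptors for bile acids, oxysterols and fatty acids bind DNA as heterodimers with a retinoid X receptor (RXR), whereas HNF4-alpha binds as a homodimer, LRH-1 as a monomer, and steroid receptors leave a chaperone complex when their hormone arrives. In liver the group is known for keeping hepatocytes differentiated and for matching cholesterol, bile acid, fat and glucose handling to feeding and to the hour of the day. The PAR bZip factors that the knockout lacks are themselves output regulators of the circadian clock and bind an element called the D-box.

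The deleted genes matched the labels in all 24 libraries. Dbp ran from 0.279 to 56.8 CPM (counts-per-million, relative to the TMM-scaled library size) in the wild type and from 0 to 0.114 in the knockout. Tef ran from 42.4 to 330.2 CPM against 3.54 to 30.1, and Hlf from 46.9 to 95.6 CPM against 0.112 to 3.34. Total counts ran from 14613001 to 19288322 per library. Wild-type set I stood apart. Its log2 deviation from the typical library rose with the GC content of genes, with r from 0.255 to 0.672, highest at ZT04, ZT16 and ZT20. The range was -0.232 to 0.0795 in wild-type set P, -0.144 to 0.0287 in knockout set I and -0.359 to -0.13 in knockout set P. The averaged genotype difference of each receptor is therefore given over all libraries and over set P alone. Some other results, among them those at single times, are given over all libraries only. The part of GC content in any result was not tested. The 8 hepatocyte markers, Alb and Apoa1 among them, summed to 76190 to 104526 CPM in the wild type and 48706 to 73132 CPM in the knockout, and none was at 0. In whole liver, fewer cells of a type and less RNA per cell cannot be told apart.

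The receptors covered a wide range of levels. Per length, as RPKM, which is CPM divided by the kilobases of the longest annotated transcript, Hnf4a was highest at 194 ± 33.8 (SD, n = 12) in the wild type and 152 ± 23.6 in the knockout. Rxra followed at 128 ± 31.8 RPKM in the wild type and 109 ± 12.8 in the knockout. Nr1h4 (64.8 ± 15.6 RPKM) and Nr1h3 (59.1 ± 16.7 RPKM) came next in the wild type and did not differ beyond their spread. The levels of Nr3c1 (14.1 ± 7.68 RPKM), Nr5a2 (13.8 ± 4.78) and Rxrb (12.9 ± 3.13) in the wild type lay within the spread of the libraries when both sets were pooled. In set P they were 20.3 ± 2.45 RPKM for Nr3c1 and 17.6 ± 2.11 for Nr5a2 (SD, n = 6), both further above the 10.6 ± 0.993 of Rxrb than their spread. At the low end, the pooled levels overlapped for Esr1 (7.75 ± 4.17 RPKM), Ppard (5.93 ± 5.13) and Pparg (4.32 ± 1.35), as they did in set P at 8.45 ± 3.31, 4.51 ± 3.66 and 4.5 ± 1.25 RPKM. The knockout kept this order except at its end, where Pparg stood at 6.05 ± 1.53 RPKM and Ppard at 5.09 ± 4.1, values whose spread overlapped. With all annotated exons as the length, the wild-type means were 3.6 RPKM for Esr1, 3.11 for Pparg and 2.94 for Ppard, so the order of Ppard and Pparg depends on the length used.

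Averaged over the day, 4 of the 10 receptors differed between genotypes in edgeR's quasi-likelihood test at an adjusted p under 0.05, called here and below. Hnf4a, Nr1h3 and Rxrb were lower in the knockout, a direction called for 21.1% of all genes tested, and Pparg was higher, as were 12.1% of all genes. The median log2 change was -0.12 over the receptors and -0.02 over all genes tested. In set P alone, Pparg and Nr3c1 were called, both higher in the knockout, against 6.7% of all genes called higher and 6.31% called lower. The median over the receptors was then -0.01. With a per-library offset for GC content and length, Pparg was called higher (13.3% of all genes) and Hnf4a and Esr1 lower (17.3%). Scaling to total counts moved the median of all genes by 0.13 on the log2 scale and the share of calls that were higher in the knockout from 36.5% to 65.1%, and the median over the receptors then lay at 0.00. For no receptor did all 12 knockout libraries lie on one side of all 12 wild-type libraries, a separation seen for 0.596% of all genes upward and 0.921% downward. The same held for the 6 against 6 libraries of set P, where 2.82% and 2.4% of all genes separated. In set I, Nr3c1 separated upward and Nr1h3 downward, against 9.14% and 7.26% of all genes.

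**Figure D1:**
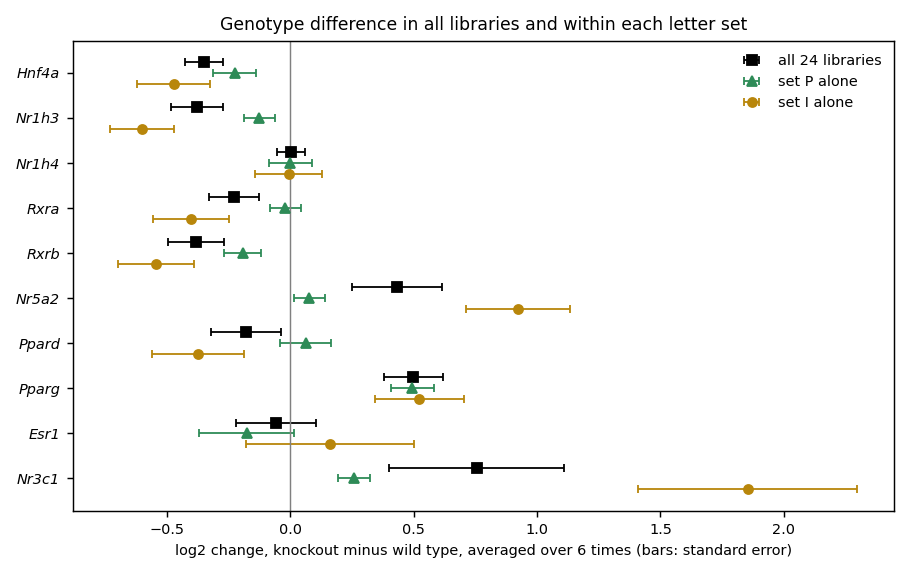
Log2 change of each receptor, knockout minus wild type, averaged over 6 times, with its standard error, from edgeR fits to all 24 libraries (squares), set P alone (triangles) and set I alone (circles). Pparg lies near 0.5 in all fits, whereas Nr3c1 lies at 0.26 in set P and 1.85 in set I.

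At single times, with 2 libraries against 2, edgeR called none of the 10 receptors. Of all genes it called 1.26% at ZT04, 0.934% at ZT08, 1.85% at ZT12, 1.65% at ZT16, 3.93% at ZT20 and 0.676% at ZT24. At an unadjusted p under 0.05 there were 3 receptors at ZT04 (Hnf4a, Nr1h4 and Rxrb), 0 at ZT08, 2 at ZT12 (Nr1h4 and Esr1), 0 at ZT16, 3 at ZT20 (Hnf4a, Nr1h3 and Rxrb) and 1 at ZT24 (Pparg). Of the 15090 genes tested, 2605, 1228, 1751, 2732, 4785 and 949 were under it at these times, so the count of receptors at ZT20 is near that of all genes. DESeq2 called Hnf4a at ZT04 and ZT20 and Esr1 at ZT12, and no other receptor at any time, against 349 genes called at ZT04, 415 at ZT12 and 1228 at ZT20.

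A 24 h cosine was called for 2 receptors in the wild type, Nr1h4 and Ppard, where 8.67% of all genes were called. In the knockout it was called for 1, Ppard, where 3.57% of all genes were called. The test of a difference in rhythm between genotypes called 0% of all genes and none of the receptors. At an unadjusted p under 0.05 it held 791 genes, Nr1h4 and Esr1 among them, and DESeq2 called 23 genes and no receptor. The genotype by time interaction also called 0% of all genes, with 966 genes and the same receptors, Nr1h4 and Esr1, at an unadjusted p under 0.05, and 129 genes but no receptor in DESeq2.

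**Figure D2:**
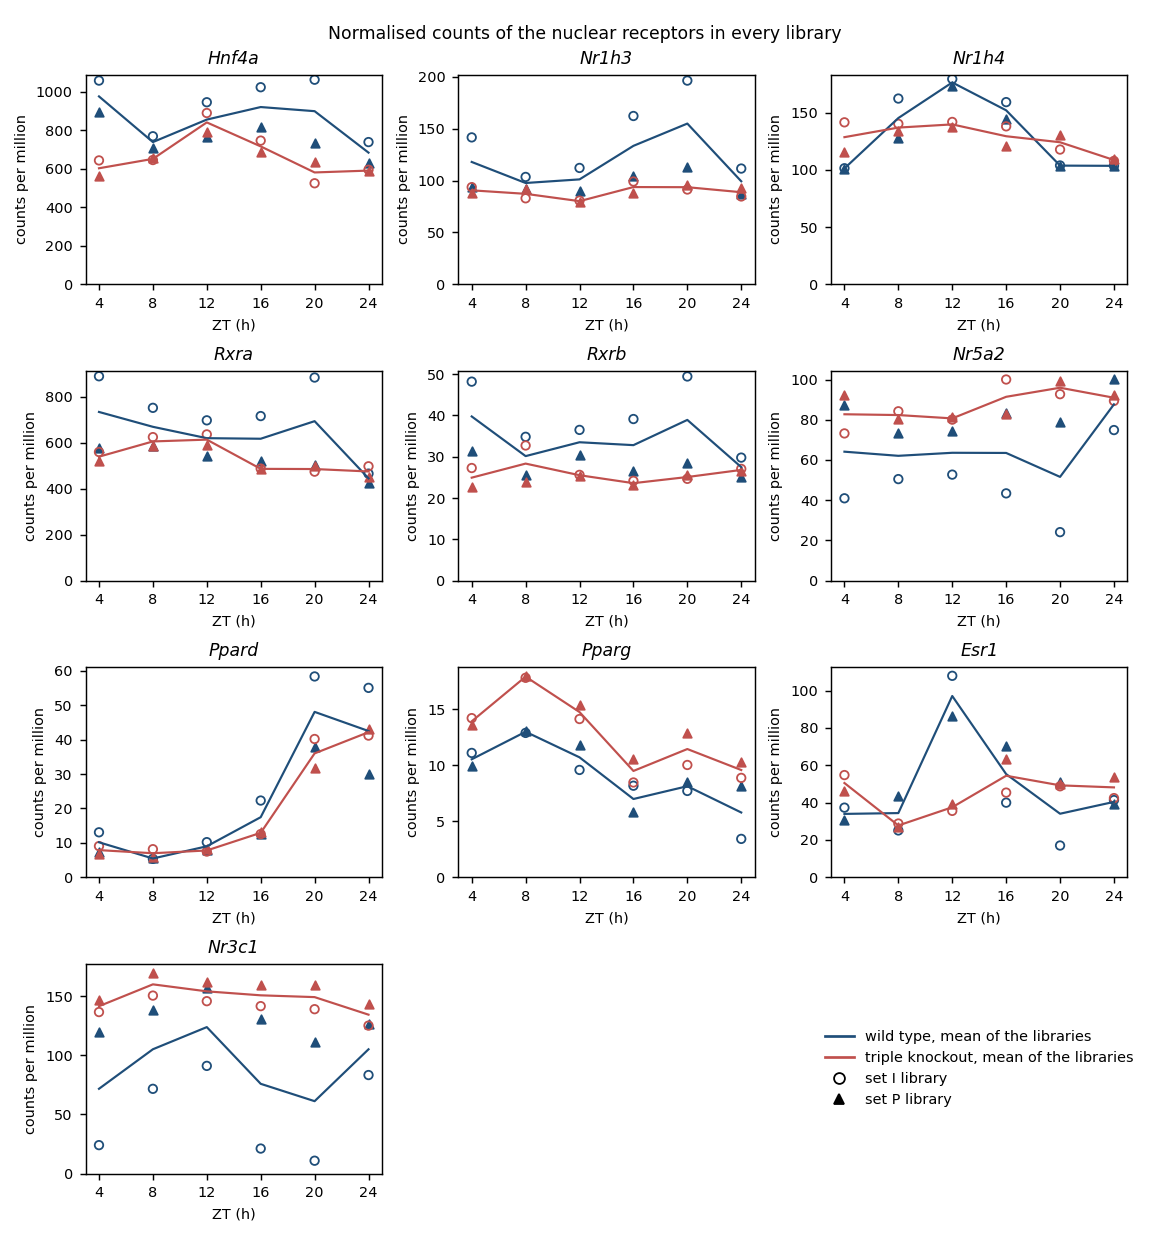
CPM of the 10 receptors in every library against ZT in hours, wild type in blue and triple knockout in red. Open circles are set I, filled triangles set P, and lines join the means. Pparg lies higher in the knockout at each time, Ppard rises from ZT16 in both genotypes, and the lowest Nr3c1 values are wild-type set I libraries.

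Hnf4a (chromosome 2, 163506808 to 163572910, plus strand, as GENCODE M21 gives it on mm10, like the positions below) encodes HNF4-alpha, a receptor that hepatocytes need for much of their secretory and lipid gene program. It ran from 629.9 CPM (median 794) to 1064 in the 12 wild-type libraries and from 525 (median 645) to 891 in the 12 knockout libraries. The genotypes overlapped, and the knockout library was higher than the wild-type library of the same time and letter in 1 of 12 cases, the set P libraries of ZT12. Such counts were not made for all genes, and the letters are not treated as a pairing. The mean was 847 ± 147 CPM (SD, n = 12) in the wild type and 665 ± 103 in the knockout, a log2 change of -0.35 (SE 0.08, adjusted p = 0.00476 in edgeR). In set P it was 759 ± 91.3 against 654 ± 81.9 CPM, a log2 change of -0.23 that was not called (adjusted p = 0.115). With the GC and length offset the change was -0.22 and called (adjusted p = 0.00468). Over both sets the difference was largest at ZT04 (977 against 603 CPM) and ZT20 (900.2 against 582), and small at ZT12 (856 against 842). In set P alone it was 895 against 563 CPM at ZT04, 819 against 687 at ZT16 and 737 against 638 at ZT20. The ZT20 difference was wider in set I, at 1064 against 525 CPM. In the knockout Hnf4a was highest at ZT12, but neither genotype's cosine was called (adjusted p = 0.911 in the wild type and 0.297 in the knockout).

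The list counts here and below stand beside 21.1% of all genes called lower and 12.1% called higher. In set P alone these shares were 6.31% and 6.7%, and with the GC and length offset 17.3% and 13.3%. No list was tested against these shares. Among 13 other transcription factors of hepatocyte identity, 4 fell, 2 rose and 7 were not called, with a median log2 change of -0.22. Those that fell were Foxa3, a forkhead pioneer factor, from 66.6 ± 24.3 to 40.9 ± 11.3 CPM (log2 change -0.69, adjusted p = 0.000458), Cebpa (-0.39), Creb3l3 (-0.38) and Gata6 (-0.21). Onecut1 (0.63) and Onecut2 (0.78), which encode HNF6 and a close relative, rose. Set P alone called 1 of the 13, Foxa3, at a log2 change of -0.47. Of 24 genes known as HNF4-alpha targets, 10 fell, none rose and 14 were not called, with a median of -0.29. Over set P, 5 fell and 1 rose. Apoa4, an apolipoprotein of triglyceride-rich particles, fell from 67.3 ± 57.2 to 15.5 ± 6.49 CPM (log2 change -1.87), and by 1.42 in set P. Cyp8b1, the sterol 12-alpha-hydroxylase of bile acid synthesis, changed by -0.98 over all libraries and by -0.56 in set P, where it was not called. Apoa2 changed by -0.66, and by -0.43 in set P. Apoc2, an activator of lipoprotein lipase, changed by -0.86 at a level near 2 CPM.

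Rxra (chromosome 2, 27676440 to 27762957, plus strand) and Rxrb (chromosome 17, 34031812 to 34038399, plus strand) encode the RXR partners of the LXR, FXR and PPAR receptors. Rxra ran from 425 CPM (median 583) to 889 in the wild type and from 453 (median 508) to 637 in the knockout, with wild-type set I above set P at all 6 times. Its mean was 630.2 ± 156 against 535 ± 62.5 CPM, a log2 change of -0.23 (SE 0.10) that was not called (adjusted p = 0.0902). In set P the means were 526 ± 59.2 and 522 ± 56.2 CPM, and the log2 change was -0.02. Without the wild-type set P library of ZT04, ZT16 or ZT20, each left out alone, Rxra was called, at -0.27, -0.26 and -0.29.

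Rxrb ran from 25.2 CPM (median 30.9) to 49.4 in the wild type and from 22.6 (median 25.5) to 32.7 in the knockout. The highest wild-type values were the set I libraries of ZT20 (49.4 CPM) and ZT04 (48.2 CPM), and the genotypes overlapped. Rxrb fell with a log2 change of -0.38 (SE 0.11, adjusted p = 0.0206), while set P alone gave -0.19 (adjusted p = 0.113) and the GC and length offset -0.12 (adjusted p = 0.141). It was higher in the knockout in 1 of 12 cases of the same time and letter, a count not made for all genes. At 61.4% its longest transcript had the highest GC content of the 10 receptors.

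Nr1h3 (chromosome 2, 91184061 to 91202834, minus strand) encodes LXR-alpha, the oxysterol receptor that raises cholesterol efflux and fat synthesis. It ran from 87.0 CPM (median 108) to 196 in the wild type and only from 79.6 (median 89.9) to 99.1 in the knockout. The wild-type set I libraries of ZT16 (162 CPM) and ZT20 (196 CPM) were the highest, and in set I all 6 knockout libraries lay below all 6 wild-type libraries. Over all libraries Nr1h3 fell with a log2 change of -0.38 (SE 0.11, adjusted p = 0.0161). In set P the means were 96.9 ± 10.1 and 89.3 ± 5.61 CPM, a change of -0.12 that was not called (adjusted p = 0.202), and with the GC and length offset it was -0.06 (adjusted p = 0.242). Nr1h3 overlaps the exons of the same-strand gene model Gm13783 over 34 bases, so their reads there could be split.

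The 14 genes known as LXR targets did not follow 1 direction: 5 rose, 2 fell and 7 were not called, with a median of 0.12, and set P alone gave 5 and 1. Abca1, the cholesterol efflux pump, rose from 216 ± 94.5 to 369 ± 24.2 CPM (log2 change 0.80, adjusted p = 0.0283) and by 0.40 in set P (adjusted p = 0.00121). Abcg5, which exports sterols into bile, rose by 0.36 and Pltp, the phospholipid transfer protein, by 0.49. Cyp7a1, the rate-limiting enzyme of bile acid synthesis, rose by 1.18, and Smpdl3a by 0.19. Lpl, which encodes lipoprotein lipase, fell from 45.8 ± 32.3 to 14.9 ± 8.28 CPM (log2 change -1.46), and by 1.43 in set P. Lpcat3, a phospholipid remodelling enzyme, changed by -0.45 over all libraries and by -0.21 in set P, where it was not called.

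Nr1h4 (chromosome 10, 89454234 to 89533585, minus strand) encodes FXR, the bile acid receptor that restrains bile acid synthesis. Its mean level was 130.4 ± 31.4 CPM in the wild type and 128 ± 12.9 in the knockout (log2 change 0.00, SE 0.06, adjusted p = 0.968), and the libraries spread over the day in the wild type. In wild-type set I the values were 101.5 CPM at ZT04, 162 at ZT08, 179 at ZT12, 159 at ZT16, 104 at ZT20 and 103.5 at ZT24. In wild-type set P they were 101.1 CPM at ZT04, 128 at ZT08, 173 at ZT12, 145 at ZT16, 104 at ZT20 and 104 at ZT24. Both sets were thus highest at ZT12 and lowest at ZT04, ZT20 and ZT24. The 12 knockout libraries lay between 108 and 142 CPM, and all 4 knockout libraries of ZT04 and ZT20 lay above all 4 wild-type ones. These times were picked after their values were seen, and the share of all genes with such a separation was not counted.

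The wild-type cosine of Nr1h4 had an amplitude (height above the mean) of 0.43 (SE 0.06) on the log2 scale and peaked at ZT12.3 (SE 0.5 h, adjusted p = 0.000225). The knockout's amplitude was 0.15 (SE 0.06), peaking at ZT11.0, and was not called (adjusted p = 0.353). The difference in rhythm had an unadjusted p of 0.00619 and an adjusted p of 0.767 in edgeR, so it was not called. In set P alone the amplitudes were 0.40 (adjusted p = 0.00918) and 0.13 (adjusted p = 0.452). The genotype change was 0.34 at ZT04, -0.34 at ZT12 and 0.26 at ZT20 on the log2 scale, none of them called.

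Of 14 genes known as FXR targets, 12 passed the filter, of which 7 fell, 2 rose and 3 were not called (median log2 change -0.22). Within set P, 5 fell and 2 rose. Slc27a5, the bile acid-CoA ligase, fell from 1317 ± 447 to 587 ± 35.2 CPM (log2 change -1.14) and by 0.83 in set P. Scarb1, the HDL receptor, changed by -0.50, and Fetub, a secreted liver protein, by -0.56. Over all libraries Pltp and Abcb4, the phospholipid flippase of the bile canaliculus, rose by 0.49 and 0.23. Abcb4 was not called in set P (log2 change 0.28, adjusted p = 0.107 in edgeR). The targets of FXR and LXR share Pltp, and Apoc2 stands in the lists of FXR and HNF4-alpha.

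**Figure D3:**
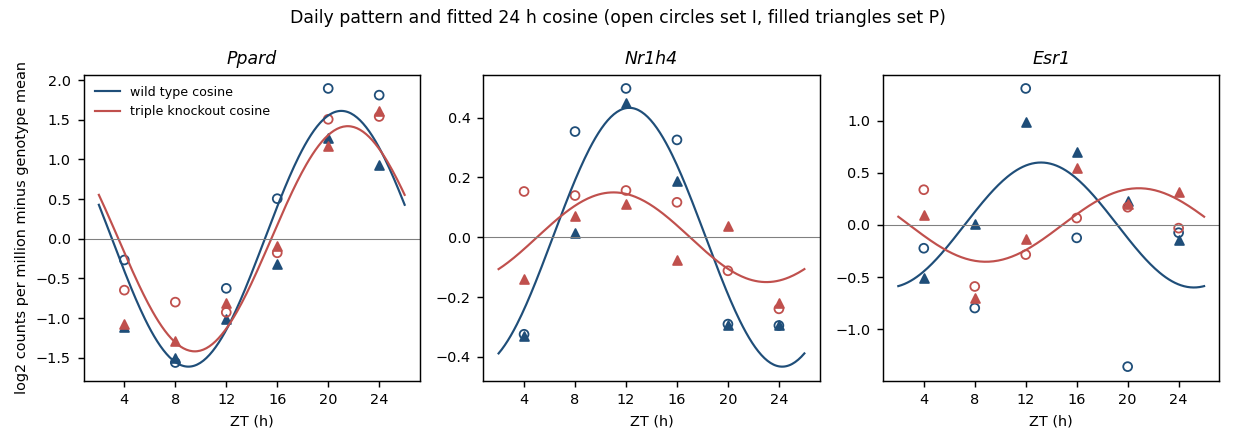
Log2 CPM of Ppard, Nr1h4 and Esr1 minus the mean of each genotype against ZT in hours, with the fitted 24 h cosines (wild type blue, triple knockout red, open circles set I, filled triangles set P). The curves of Ppard peak at ZT21.0 and ZT21.5, that of Nr1h4 is 0.43 high in the wild type and 0.15 in the knockout, and Esr1 peaks at ZT13.2 and ZT20.9.

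Nr5a2 (chromosome 1, 136842571 to 136960448, minus strand) encodes LRH-1, a regulator of bile acid and cholesterol genes. It ran from 24.2 CPM (median 74.0) to 100.4 in the wild type and from 73.2 (median 86.8) to 100.004 in the knockout. The 6 wild-type set I libraries, at 24.2 to 74.9 CPM, lay below the set P library of the same time at all 6 times, with the lowest at ZT20. Over all libraries Nr5a2 had a log2 change of 0.43 (SE 0.18) that was not called (adjusted p = 0.0762). In set P it stood at 83.1 ± 9.99 against 88.1 ± 7.63 CPM, a change of 0.08 (adjusted p = 0.456). It was called when the wild-type set P library of ZT04, ZT16 or ZT20 was left out, at 0.54, 0.52 and 0.61. Of 9 genes known as LRH-1 targets, Cyp8b1, Gls2 and Scarb1 fell, Abcg5 and Cyp7a1 rose and 4 were not called (median -0.11). In set P alone 2 fell and 4 rose, with a median of 0.16. Gls2, the liver glutaminase that LRH-1 is known to drive, changed by -0.50 over all libraries and by -0.33 in set P.

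Ppard (chromosome 17, 28232700 to 28301474, plus strand) encodes PPAR-delta, a fatty acid receptor that drives fat burning. It had the widest daily range of the 10 receptors. In wild-type set P it measured 7.24 CPM at ZT04, 5.53 at ZT08, 7.77 at ZT12, 12.6 at ZT16, 37.8 at ZT20 and 30.0 at ZT24. In knockout set P it measured 6.7 CPM at ZT04, 5.78 at ZT08, 8.08 at ZT12, 13.3 at ZT16, 31.8 at ZT20 and 43.2 at ZT24. The set I values ran from 5.33 to 58.4 CPM in the wild type and from 7.44 to 41.2 CPM in the knockout. In both genotypes and both sets the libraries of ZT20 and ZT24 lay above those of all other times.

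The cosine of Ppard had an amplitude of 1.61 (SE 0.18) in the wild type, peaking at ZT21.0 (SE 0.4 h, adjusted p = 3.86e-05), and of 1.42 (SE 0.18) in the knockout, peaking at ZT21.5 (SE 0.5 h, adjusted p = 0.000168). In set P alone the amplitudes were 1.45 and 1.49, both called (adjusted p = 0.00645 and 0.00707). The rhythm difference was not called (adjusted p = 0.982). The averaged log2 change of -0.18 (SE 0.14, adjusted p = 0.302) was not called either, and in set P it was 0.06.

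Pparg (chromosome 6, 115360951 to 115490399, plus strand) encodes PPAR-gamma, the fat-storage receptor of adipocytes that is low in normal liver. It was the lowest receptor per kilobase of the longest transcript in the wild type and the only one of the 10 called in the same direction over all libraries, in set P and with the GC and length offset. In the wild type, set I measured 11.1 CPM at ZT04, 12.9 at ZT08, 9.58 at ZT12, 8.17 at ZT16, 7.7 at ZT20 and 3.42 at ZT24, and set P measured 9.96, 13.1, 11.8, 5.79, 8.54 and 8.13 CPM at the same times. In the knockout, set I measured 14.2 CPM at ZT04, 17.8 at ZT08, 14.1 at ZT12, 8.46 at ZT16, 10.02 at ZT20 and 8.87 at ZT24, and set P measured 13.6, 18.0, 15.4, 10.5, 12.9 and 10.3 CPM. The genotypes overlapped across the day. At each time and letter the knockout library was the higher one, in 12 of 12 cases, as it also was for Nr3c1. The letters are shared labels and not a pairing, and the share of all genes with 12 of 12 was not counted.

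Pparg rose from 9.18 ± 2.86 to 12.8 ± 3.26 CPM (SD, n = 12 each), a log2 change of 0.50 (SE 0.12, adjusted p = 0.00705). Set P gave 0.49 (adjusted p = 0.00413), set I 0.52 (adjusted p = 0.0531) and the GC and length offset 0.69 (adjusted p = 0.000895). The change lay between 0.40 and 0.73 at the single times, all positive. Leaving out each of the 24 libraries in turn kept it called, at 0.45 to 0.62. Its cosine peaked at ZT8.7 in the wild type and ZT8.2 in the knockout with amplitudes of 0.46 and 0.40, not called in edgeR (adjusted p = 0.0587 and 0.166). DESeq2 called the wild-type cosine (adjusted p = 0.0208), as did edgeR with the GC and length offset (adjusted p = 0.0279).

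Adipocyte and macrophage markers, whose cells can carry Pparg, were measured beside it. The 7 adipocyte markers summed to 9.14 to 27.5 CPM in the wild type and 9.36 to 19.6 in the knockout, and the 4 that passed the filter had a median log2 change of 0.04. In set P alone the sums did not overlap, at 9.14 to 12.1 CPM (10.5 ± 1.3, SD, n = 6) in the wild type and 13.6 to 19.6 CPM (16.0 ± 2.4) in the knockout. Of the 4, Fabp4, a fatty acid binding protein named here after its values were seen, went from 6.9 ± 0.65 to 12.7 ± 1.69 CPM in set P. The rise of the summed markers in set P was no larger than that of Fabp4. In edgeR Fabp4 was called higher in set P (log2 change 0.86, adjusted p = 0.000104), but not over all libraries (0.40, adjusted p = 0.0772) or with the GC and length offset (-0.12). Adipoq, Retn and Lep, which define adipocytes, did not pass the filter, and Retn was at 0 in the 6 wild-type set P libraries, and Lep and Plin1, a lipid droplet protein, at 0 in the 6 knockout set I libraries. The 10 Kupffer cell and macrophage markers summed to 520.0 to 984 CPM in the wild type and 561 to 842 in the knockout, with means of 703 ± 153 and 702 ± 80.0. Of these, 3 rose, namely Adgre1 (log2 change 0.45), Marco (0.76) and Vsig4 (0.27), and 7 were not called. In set P the sum was 635 ± 94.2 CPM in the wild type and 722 ± 99.3 in the knockout (n = 6), with overlapping ranges and a median log2 change of 0.21, and Adgre1 (0.41) and Marco (1.14) were called higher. With the GC and length offset 5 of the 10 were called higher, as were 13.3% of all genes. These 5 were Adgre1, Marco and the complement genes C1qa, C1qb and C1qc, the last 3 named after their values were seen. The part of these cells in the rise of Pparg was not tested.

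Of 16 genes known as targets of PPAR-gamma or PPAR-delta, 14 passed the filter, of which 6 fell, 2 rose and 6 were not called (median -0.39). Set P had 3 that fell and 4 that rose, with a median of -0.08. Acsl1, a fatty acyl-CoA synthetase, fell from 1916 ± 446 to 1198 ± 275 CPM (log2 change -0.68, set P -0.60), and Plin5, a lipid droplet protein of oxidative tissues, fell from 60.1 ± 23.8 to 35.2 ± 10.9 CPM (-0.76). Lpl fell as given for the LXR targets. Cd36, the fatty acid transporter, rose from 40.7 ± 26.1 to 77.4 ± 23.3 CPM (1.06, set P 0.96) and Fabp1, the liver fatty acid binding protein, rose by 0.38. The targets of this list did not move 1 way while Pparg rose.

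The promoters of the rhythmic and the risen receptors are shown because the knockout lacks D-box binding factors. RefSeq windows (build GRCm38.p6) were taken for 9 of the 10 receptors, with 17 start sites, and Nr3c1 was left out. The 250 bases before each start were searched on both strands. The D-box forms TTATGTAA and TTACGTAA were in none of the 17 windows, against 0.931% of all 32851 windows of that length. The E-box CACGTG was in none either, against 6.02% of all windows. The receptor half-site AGGTCA was in 5 of 17 windows (Nr1h4, Rxra, Nr5a2 and Pparg at 2 starts), against 14% of all windows. A missing match says only that these letters do not stand in the window. Printed 5′ to 3′ on the gene's strand, in capitals where a motif matched and without bases that GENCODE M21 annotates as exon, are those of Nr1h4 (chr10:89506659-89506908, minus strand), Ppard (chr17:28232504-28232699, plus strand), and starts 2 and 3 of Pparg (chr6:115362099-115362291 and chr6:115421816-115422065, plus strand). The capitals in Nr1h4 are the half-site on the opposite strand, 214 to 209 bases before the start, while the half-site of Pparg start 2 lies 9 to 4 bases before it, within annotated exon, and is not printed.
Nr1h4: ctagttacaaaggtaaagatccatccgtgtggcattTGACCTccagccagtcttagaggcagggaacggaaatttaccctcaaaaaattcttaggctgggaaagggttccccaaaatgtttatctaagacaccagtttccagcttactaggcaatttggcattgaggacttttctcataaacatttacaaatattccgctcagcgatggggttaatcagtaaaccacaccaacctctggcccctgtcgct
Ppard: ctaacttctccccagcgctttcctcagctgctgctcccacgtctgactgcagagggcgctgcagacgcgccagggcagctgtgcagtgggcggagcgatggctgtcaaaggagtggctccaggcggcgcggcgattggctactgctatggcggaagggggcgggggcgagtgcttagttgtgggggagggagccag
Pparg start 2: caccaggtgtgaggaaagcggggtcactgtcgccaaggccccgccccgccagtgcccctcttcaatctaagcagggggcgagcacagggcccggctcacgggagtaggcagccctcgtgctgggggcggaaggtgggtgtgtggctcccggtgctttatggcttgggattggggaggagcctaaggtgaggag
Pparg start 3: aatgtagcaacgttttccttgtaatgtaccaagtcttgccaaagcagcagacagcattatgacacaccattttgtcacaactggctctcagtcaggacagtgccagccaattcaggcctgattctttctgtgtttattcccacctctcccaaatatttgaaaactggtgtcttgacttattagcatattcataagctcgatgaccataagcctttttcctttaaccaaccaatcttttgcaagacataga
The starts of Pparg differ in composition. The 250 bases before starts 1, 2 and 3 were 82.4%, 63.6% and 40.8% GC with 38, 12 and 2 CpG dinucleotides. Ppard had 69.6% GC with 22 CpG and Nr1h4 44.4% GC with 5. The counts are per gene, so which start of Pparg the rise came from cannot be read from them.

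Esr1 (chromosome 10, 4611593 to 5005614, plus strand) encodes estrogen receptor alpha, which in liver is known to restrain fat storage. In the wild type, set I measured 37.3 CPM at ZT04, 25.0 at ZT08, 108 at ZT12, 39.9 at ZT16, 16.9 at ZT20 and 41.3 at ZT24, and set P 30.5, 43.6, 86.3, 70.5, 51.0 and 39.3 CPM. In the knockout, the 12 libraries lay between 26.6 and 63.4 CPM, with 35.5 and 39.4 CPM at ZT12. Both wild-type libraries of ZT12 thus stood above every knockout library of any time. ZT12 was picked here after the values were seen, and the share of all genes that stand apart in this way was not counted. The averaged log2 change was -0.06 (SE 0.16, adjusted p = 0.781) and -0.18 in set P (adjusted p = 0.587). It was 0.05 with scaling to total counts and -0.40 with the GC and length offset, where it was called (adjusted p = 0.0216).

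At ZT12 Esr1 had a log2 change of -1.37 (SE 0.40, unadjusted p = 0.0037, adjusted p = 0.112 in edgeR), which DESeq2 called. Its cosine peaked at ZT13.2 with an amplitude of 0.60 (SE 0.18) in the wild type and at ZT20.9 with 0.35 (SE 0.19) in the knockout, neither called (adjusted p = 0.0837 and 0.702). In set P the wild-type cosine was called at an amplitude of 0.69 (adjusted p = 0.017). Over all libraries DESeq2 called the wild-type cosine (adjusted p = 0.0368), as did edgeR with the GC and length offset (adjusted p = 0.0303). None of these settings called the knockout cosine. The rhythm difference had an unadjusted p of 0.0183 and an adjusted p of 0.849. Of 6 genes known as estrogen targets, 4 passed the filter, of which 2 rose and 2 were not called, with a median of 0.38. Those that rose were Lifr, a cytokine receptor (log2 change 0.47), and Tff3, a trefoil peptide (1.62, at a level near 1 CPM). Set P alone called 2 of the 4 higher, with a median of 0.54, and the GC and length offset called 1.

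Nr3c1 encodes the glucocorticoid receptor, which carries the daily corticosterone signal into liver metabolism. In the wild type, set I measured 24.02 CPM at ZT04, 71.6 at ZT08, 91.0 at ZT12, 21.1 at ZT16, 10.8 at ZT20 and 83.3 at ZT24, while set P measured 119, 139, 157, 131, 112 and 127 CPM. In the knockout, set I ran from 125 to 150.5 CPM and set P from 144 to 169.5. The 6 wild-type set I libraries lay below every other library. The set P libraries of the genotypes overlapped, with the knockout higher at 6 of 6 times. Neither count was made for all genes, and the letters are not treated as a pairing. Over all libraries Nr3c1 had a log2 change of 0.76 (SE 0.36) that was not called (adjusted p = 0.103). Set P alone gave 0.26 (SE 0.06), from 131 ± 15.8 to 157 ± 9.89 CPM, and was called (adjusted p = 0.024). With the GC and length offset over all libraries the change was 0.42 and was not called (adjusted p = 0.0644 in edgeR). Set I alone gave 1.85 (adjusted p = 0.0284), and without the 6 wild-type set I libraries, an alternative chosen after seeing the data, the change was 0.18 (adjusted p = 0.0379). It was called over all libraries when the wild-type set P library of ZT04, ZT16 or ZT20 was left out, at 1.02, 1.06 and 1.17. No cosine of Nr3c1 was called (adjusted p = 0.85 in the wild type and 1 in the knockout).

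Of 17 genes known as glucocorticoid receptor targets, 7 fell, 2 rose and 8 were not called (median -0.28). With set P only, 1 fell and 1 rose, Tat and Klf9. Tat, the tyrosine aminotransferase that glucocorticoids are known to induce, fell from 1466 ± 614 to 1059 ± 416 CPM (log2 change -0.47, set P -0.45). Klf9, a zinc finger factor, rose by 0.52 and by 0.33 in set P. Fkbp5, a feedback chaperone of the receptor, changed by -0.92 over all libraries and by -0.44 in set P, where it was not called. Igfbp1, which binds insulin-like growth factors, changed by -1.18 over all libraries and Lcn2, an iron-carrier binding protein, by 0.99, neither called in set P. A 24 h cosine was called for 12 of these 17 genes in the wild type and for 6 in the knockout, against 8.67% and 3.57% of all genes, and the difference between these counts was not tested. Of 8 genes for receptor chaperones and hormone activation, 3 fell, none rose and 5 were not called (median -0.18). Hsd11b1, the enzyme that regenerates active corticosterone in the cell, fell from 728 ± 168 to 370.2 ± 31.3 CPM (log2 change -0.96) and by 0.79 in set P. Hsp90ab1, a chaperone subunit, changed by -0.28 over all libraries and by -0.07 in set P.

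Coregulators are the proteins through which these receptors switch genes on and off. Of 17 coactivator and corepressor genes, 5 rose (12.1% of all genes), none fell (21.1%) and 12 were not called (median 0.16). Those that rose were Tbl1x (log2 change 0.31), Ncoa1 (0.30), Med1 (0.21), Nrip1 (0.52) and Ncoa2 (0.37). None of these 5 was called in set P alone (adjusted p from 0.154 to 0.638 in edgeR), and the median of the 17 was then 0.05. With the GC and length offset 1 of the 17 was called higher, Gps2 (0.17), and 1 lower, Ep300 (-0.26), both named after their values were seen.

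Of 38 other nuclear receptors listed, 27 passed the filter. Of these, 8 fell (21.1% of all genes), 4 rose (12.1%) and 15 were not called (median -0.21). In set P alone 1 fell (6.31% of all genes) and 4 rose (6.7%). Nr1i3, the xenobiotic receptor CAR, fell from 54.4 ± 14.2 to 27.7 ± 6.6 CPM (log2 change -0.97) and by 0.89 in set P. Among those that rose were Nr3c2, the mineralocorticoid receptor (0.56, set P 0.37), Nr2c1 (0.49, set P 0.49) and Nr6a1 (0.49, set P 0.22, not called there). A 24 h cosine was called for 8 of the 27 in the wild type and 6 in the knockout, beside 8.67% and 3.57% of all genes.

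The ratio of wild-type set I to set P libraries varied over the receptors with the GC content and the length of their transcripts. In the wild type the mean log2 ratio of set I to set P was -1.77 ± 1.15 (SD over 6 times) for Nr3c1 at 42.2% GC and -0.87 ± 0.49 for Nr5a2 at 43.3%. It was 0.46 ± 0.23 for Rxra at 57.04% and 0.49 ± 0.22 for Rxrb at 61.4%, and highest, at 0.59 ± 0.36, for Ppard at 52.2%. In the knockout the same ratios were -0.17 ± 0.04, -0.03 ± 0.20, 0.06 ± 0.08, 0.13 ± 0.19 and 0.17 ± 0.29. Across the 10 receptors the ratio correlated with GC content at r = 0.84 in the wild type and 0.62 in the knockout, and across 12657 genes at 0.68 and 0.39. With log2 transcript length r was -0.54 and -0.26 across the receptors, and -0.30 and -6.35e-05 across the genes. These are descriptions of genes that share libraries, and the parts of GC content and length were not told apart. The test of whether the genotype difference itself differed between the sets, added after seeing the data, called 5 of the 10 receptors and 29% of all genes. These were Nr1h3, Rxra, Rxrb, Nr5a2 and Nr3c1. Pparg had a difference between sets of -0.01 (SE 0.22, adjusted p = 0.982) and Nr1h4 of 0.02 (SE 0.10, adjusted p = 0.909).

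**Figure D4:**
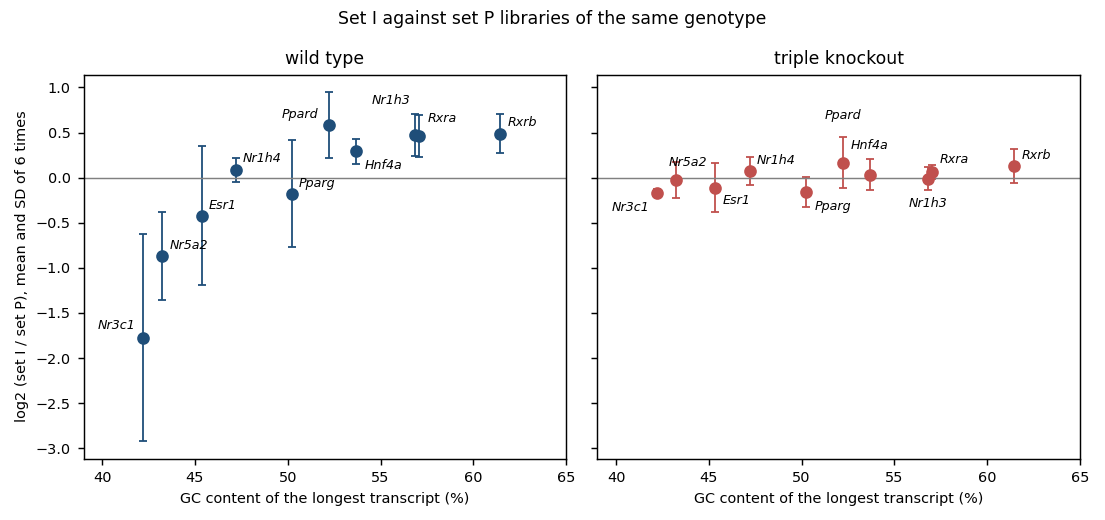
Mean log2 ratio of set I to set P (bars, SD over 6 times) against the GC content of the longest transcript in percent, for each receptor in the wild type (left) and the triple knockout (right). In the wild type the ratio runs from -1.77 for Nr3c1 to 0.59 for Ppard, and in the knockout from -0.17 to 0.17.

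The genes whose pattern over the 12 group means of log2 CPM was most like that of a called receptor were sought among 10623 protein-coding genes. For Pparg these were Txnrd3, Slc41a1 and Wwox (Pearson r 0.89, 0.88 and 0.88), with r of 0.75, 0.80 and 0.74 across the 12 set P libraries. For Ppard they were Pnrc1, Acrbp and Zbtb21 (0.94, 0.92 and 0.92, set P 0.94, 0.85 and 0.93). For Nr1h4 they were Tlcd1, Crcp and Maco1 (0.92, 0.91 and 0.90, set P 0.94, 0.88 and 0.86). For Hnf4a they were Tmem248, Ubb and Spcs1 (0.96, 0.94 and 0.94), which kept r of 0.85, 0.63 and 0.70 in set P. For Nr1h3 they were Cct7, Arl3 and Snu13 (0.98 each, set P 0.92, 0.89 and 0.46), and for Rxrb Fiz1, Coq6 and Coasy (0.99, 0.98 and 0.98, set P 0.78, 0.80 and 0.81). These are the highest values among many genes measured in the same libraries.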

How the data were processed

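Per the labels' protocols, a TruSeq Stranded mRNA kit was used for the 24 mouse liver libraries. The authors deposited whole-number read counts for each Ensembl gene, without normalization. The submitters' processing notes name STAR 2.4.0i and mm10. Which tool counted the reads, on which annotation and with which strand option is not given in the sources used here, so reads of overlapping or antisense genes could be shared. Hnf4a and Pparg have antisense neighbours with 0 bases of exon overlap. Symbols were matched for 54495 of 54532 genes in GENCODE M21, 0 columns were left unmatched, and 0 pairs of libraries held identical values.

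Counts were tested in R 4.3.3 with edgeR 4.0.16 (glmQLFit and glmQLFTest), after TMM scaling, filterByExpr at its default minimum of 10 counts, and Benjamini-Hochberg adjustment over all 15090 genes tested. A fit of 12 group means gave the genotype contrasts and the interaction. A fit of a 24 h cosine and sine per genotype gave the rhythms. CPM is the count over the TMM-scaled library size, and RPKM divides it by length. DESeq2 1.42.0, other scalings, no filter, the replicate block, GC and length offsets (4 spline degrees of freedom), single sets and leave-one-out fits were the alternatives. The functions were tested on simulated data.

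The receptors and the gene lists were chosen with earlier results of these data known. Named besides the receptors were the 3 deleted genes, up to 4 called genes of each list with the smallest p and any others where 5 or fewer rose or fell, and the 3 most similar genes for each called receptor. A gene that this rule selects is not reported here. Depth, 14613001 to 19288322 counts per library, put the lowest receptor at 3.42 CPM. No protein sequence was used here.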

Additional observations from a re-analysis of the deposited data

Results flagged for a closer look

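The genotype difference of 5 receptors differed between set I and set P in a genotype by letter term (edgeR, adjusted over 15090 genes), as it did for 4376 of all genes (29%), a test added after seeing the data. The values come from 1 fit to all libraries and so differ from the separate fits to each set. Set P minus set I, the log2 change differed by 0.49 for Nr1h3 (SE 0.11, adjusted p = 0.0171), from -0.60 to -0.12. It differed by 0.39 for Rxra (SE 0.11, adjusted p = 0.0234), from -0.41 to -0.01. It differed by 0.36 for Rxrb (SE 0.12, adjusted p = 0.043), from -0.54 to -0.18. For Nr5a2 the difference was -0.83 (SE 0.20, adjusted p = 0.0172), from 0.91 to 0.08. For Nr3c1 it was -1.57 (SE 0.41, adjusted p = 0.0201), from 1.77 to 0.19. The sign of the change was the same in both sets for each of the 5. For Rxra the fit to set P alone gave -0.02 (SE 0.06), so no direction is read for it in set P. What the letters stand for is not given in the labels, and the cause of the difference was not tested.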

How the results depend on the processing

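Over the day 4 receptors and 5007 genes were called. The count moved to 7 receptors and 7898 genes with the replicate block, to 2 and 1963 in set P alone, to 3295 genes without the 3 wild-type set I libraries of ZT04, ZT16 and ZT20 and to 2855 without all 6. Leaving out each library in turn gave 4 to 7 receptors and 3359 (without wild-type set I at ZT16) to 9084 genes (without wild-type set P at ZT20), and 7 receptors without the wild-type set P library of ZT04, ZT16 or ZT20. At single times, 0 receptor calls became 3 in DESeq2, 5 with no filter, 4 with the replicate block, 2 with the GC and length offset, 2 with both, 1 without the 3 and 1 without the 6 libraries. Leaving out 1 library gave 0 to 9, 9 of them without the wild-type set P library of ZT20. That same fit called 9084 genes over the day. Shares of all genes called at single times are not given for these settings, except DESeq2. These counts are therefore not a result about the receptors.

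For the wild-type rhythm, 2 receptors became 4 in DESeq2, 4 with the GC and length offset alone or with the replicate block, 5 without the 3 libraries and 0 in set I alone, and 2 to 4 when 1 library was left out. The 1308 genes became 2053 with the offset, 2231 with offset and replicate block, 818 in set P, 0 in set I, 762 without the 6 libraries, and 841 (without wild-type set I at ZT12) to 2142 (without wild-type set I at ZT04) when 1 was left out. For the knockout rhythm, 1 receptor became 2 with offset and replicate block, 0 in set I, 3 without the 3 and 4 without the 6 libraries, and 1 to 2 when 1 was left out. The 538 genes became 340 in a test of any difference among times, 995 in DESeq2, 1148 with the offset, 1280 with offset and replicate block, 0 in set I, 1848 and 2739 without the 3 and 6 libraries, and 390 to 860 (without wild-type set I at ZT20) when 1 was left out.

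For the rhythm difference, 0 genes became 23 in DESeq2, 72 with no filter, 2 with the offset, 2 with offset and replicate block, 3 without the 3 libraries, and 0 to 3 when 1 was left out. For the interaction, 0 genes became 129 in DESeq2, 639 with no filter, 7 with the replicate block, 1 with the offset, 14 with both, 17 and 24 without the 3 and 6 libraries, and 0 to 13 when 1 was left out. Receptor calls of the interaction became 1 with no filter. The cause of these moves was not tested, beyond the smaller number of samples in single sets.

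Changes near 0 turned sign. Esr1 became 0.055 with total counts and 0.16 in set I. Nr1h4 became -0.000396 in set P and -0.00648 in set I. Ppard became 0.062 in set P, 0.043 without the 3 and 0.15 without the 6 libraries, and Rxra 0.017 without the 6. With 1 library left out Esr1 ran from -0.14 to 0.11 and Nr1h4 from -0.0095 to 0.044.

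Under the replicate block Rxra (-0.21, adjusted p = 0.0356), Nr5a2 (0.49, adjusted p = 0.016) and Nr3c1 (0.97, adjusted p = 0.0159) were also called over the day, and the wild-type rhythm of Pparg (adjusted p = 0.0441). Libraries that share a time and letter across genotypes deviated from their group means with r of 0.245, 0.179, 0.288, 0.109, 0.0958 and 0.124 across genes from ZT04 to ZT24. All were positive, but not all exceeded 0.1, so the letters are treated as shared labels only, not as a pairing.

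Sets I and P, with 1 library per genotype and time, leave few degrees of freedom, so a call missing there is no sign of stability or change. A receptor as low as Pparg rests on few counts per library, and intervals of counts cover counting error only.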

Other observations

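Marker genes of other liver cells gave the following sums in CPM. The 8 sinusoidal endothelial markers summed to 344 ± 26.8 (SD, n = 12) in the wild type and 371 ± 36.6 in the knockout, with 1 of 8 higher (Kdr). Set P alone called 1 higher and 1 lower, neither of them Kdr (log2 change 0.02 there). The 8 stellate cell markers summed to 318 ± 42.5 and 357 ± 26.8, with 1 higher (Reln) and 1 lower (Colec11). In set P these sums were 353 ± 14.3 and 371 ± 20.6 (n = 6), and none of the 8 was called. The 6 cholangiocyte markers summed to 36.0 ± 14.02 and 52.3 ± 12.9, with Sox9 higher and Krt19 lower. In wild-type set I their sum was 25.1 ± 5.88. In set P it was 46.9 ± 10.7 in the wild type and 55.8 ± 13.9 in the knockout, with no marker called. The 5 red cell markers summed to 247 ± 51.7 and 269 ± 75.1, with Hbb-bs higher. T cell markers summed to 2.08 ± 0.96 and 2.65 ± 1.12, and neutrophil markers to 6.51 ± 11.0 and 5.81 ± 2.17. Their median log2 changes were 0.38 and 0.53, with no member called in edgeR. Of the 8 hepatocyte markers 6 were lower over the day and 4 in set P alone. Alb, which encodes serum albumin, fell from 62607 ± 8170.3 to 35381 ± 7322.5 CPM.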
